A study of Mus musculus with 6 samples.

Results

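The genes described are 9 interferon-inducible genes outside the large interferon-stimulated families: *Ifi27*, *Ifi27l2a*, *Ifi27l2b*, *Ifi44*, *Ifi44l*, *Rtp4*, *Ifi35*, *Nmi* and *Ifi30*. They were chosen by symbol from the 54232 annotated genes, and 7 of the 9 had enough counts to be tested, among 11254 genes in all. RNA was sequenced from monocytes of the central nervous system (CNS) of mixed bone marrow chimeras with experimental autoimmune encephalomyelitis (EAE), a mouse model of multiple sclerosis. Irradiated GFP+ recipients had received equal parts of marrow from CD45.1 WT donors and CD45.2 Ifnar1-/- donors, which lack a chain of the type I interferon receptor. EAE was induced 6 to 7 weeks later, and all recipients were given recombinant IFN-β (rIFN-β) daily at 30000 IU. At disease peak, GFP-CD45+CD11b+Ly6ChiLy6G- cells of each genotype were sorted, giving 3 WT and 3 Ifnar1-/- libraries. Both genotypes were thus exposed to the same inflamed CNS and the same treatment, and the comparison asks which transcripts in monocytes depended on the cell's own receptor. No library from mice without rIFN-β was analysed here, so a difference between genotypes covers both injected and endogenous interferon. The recipients numbered 3 and each carried both genotypes, so a WT and an Ifnar1-/- library can come from the same mouse. Which libraries do is not stated, and the exact tests treat the 6 as independent. The genotype and the CD45 strain of the donor cannot be told apart.

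The WT libraries held 7321380, 4531782 and 4946747 expected counts (replicates 1 to 3), and the Ifnar1-/- libraries held 6916101, 5811323 and 5442568. Values between libraries are given as normalized CPM, that is, counts scaled to a common library total with the TMM factors of edgeR. A count of 3 in a library, taken as the limit that a count of 0 allows, corresponded to 0.426 to 0.636 normalized CPM. This limit covers counting error only. A gene was called higher or lower when its edgeR quasi-likelihood p, adjusted over all genes tested, was at most 0.05 and its fold change was at least 1.5. *Ifnar1* itself was counted at 152, 125 and 111 normalized CPM in WT and 110, 101 and 109 in Ifnar1-/- libraries. Counts over the whole gene can include transcripts from a disrupted allele, and so do not check the genotype.

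Type I interferons bind the IFNAR1 and IFNAR2 chains, whose kinases activate a factor that contains STAT2 and IRF9. This factor binds interferon-stimulated response elements in the promoters of its target genes. Several of the 9 genes are classical targets of this route, but the 9 do not form a single protein family. *Ifi27*, *Ifi27l2a* and *Ifi27l2b* are neighbouring genes of the Isg12 family of small hydrophobic proteins. *Ifi44* and *Ifi44l* encode related cytoplasmic proteins. *Rtp4* encodes a receptor-transporting protein, known as a chaperone of opioid receptors and for antiviral activity. *Ifi35* and *Nmi* encode proteins that bind each other. *Ifi30* encodes GILT, a lysosomal thiol reductase that reduces disulfide bonds of antigens for presentation on MHC class II, and is best known as a target of IFN-γ.

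RefSeq promoters (GRCm38.p6, 250 bases before to 50 after the start of the gene) were at hand for 5 of the 9 genes: *Ifi44*, *Ifi44l*, *Ifi35*, *Nmi* and *Ifi30*. Stretches of 3 are printed because these genes span the responses described next, from the large difference of *Ifi44* over the smaller one of *Ifi35* to *Ifi30*, which was not called. Each reads 5′ to 3′ along the strand of its gene, and capitals mark matches to the IRF core AANNGAAA or its reverse complement TTTCNNTT.
Ifi44, chr3:151749951-151750030, minus strand, bases -120 to -41: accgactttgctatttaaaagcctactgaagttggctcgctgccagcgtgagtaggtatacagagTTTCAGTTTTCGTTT
Ifi35, chr11:101448312-101448436, plus strand, bases -100 to +25: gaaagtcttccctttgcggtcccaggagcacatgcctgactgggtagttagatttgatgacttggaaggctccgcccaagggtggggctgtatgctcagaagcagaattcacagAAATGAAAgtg
Ifi30, chr8:70766664-70766783, minus strand, bases -120 to -1: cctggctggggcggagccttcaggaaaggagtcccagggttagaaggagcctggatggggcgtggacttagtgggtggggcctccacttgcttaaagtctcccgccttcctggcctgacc

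The IRF core was present in 4 of these 5 promoters, and in 23.9% of all 32851 mouse promoters of the same length. *Ifi44* matched at bases -55, -48 and -9, counted from the RefSeq start of the gene, and the first 2 of these overlap. The annotation used for the counts starts *Ifi44* farther upstream, so that the match at -55 spans that start and those at -48 and -9 lie inside the gene as positioned in it. *Ifi44l* matched at -225 and -192, *Nmi* at -174 and *Ifi35* at +15, inside the transcript. The letters were not found in the 300 bases of *Ifi30*. The core of an interferon-stimulated response element, 2 copies of GAAA separated by 2 bases on either strand, was found in 0 of the 5 and in 3.44% of all promoters. The STAT motif TTCNNNGAA, which reads the same on both strands, was found in 8.3% of all promoters and in 1 of the 5, *Ifi35*, at +8. A match is a description of these letters and not a binding site.

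Of the 7 tested genes, 4 were higher in WT monocytes, *Ifi27l2a*, *Ifi44*, *Rtp4* and *Ifi35*, where 1.67% of all tested genes were called in this direction. Their differences ran from 2.05-fold for *Ifi35* to 33.9-fold for *Ifi27l2a*, as ratios of the mean normalized CPM. *Ifi27*, *Nmi* and *Ifi30* were not called. By edgeR 0 of the 7 were lower in WT (0.462% of all tested genes), also at an unadjusted p under 0.05, and DESeq2 and limma-voom called 0 lower as well. DESeq2 called 5 of the 7 higher, with *Ifi27* added (3.15% of all tested genes), as did edgeR with no filter on low counts (2.87%), and edgeR with offsets for GC content and length called 3, with *Ifi35* lost (1.05%). The median log2 fold change of the 7 was 1.34, against -0.01 over all tested genes. In 6 of the 7, every WT library was above every Ifnar1-/- library, against 11.1% of all tested genes. *Ifi27l2b* and *Ifi44l* had a count of 0 in all 6 libraries. In bulk libraries like these, fewer expressing cells and less RNA per cell cannot be told apart.

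**Figure D1:**
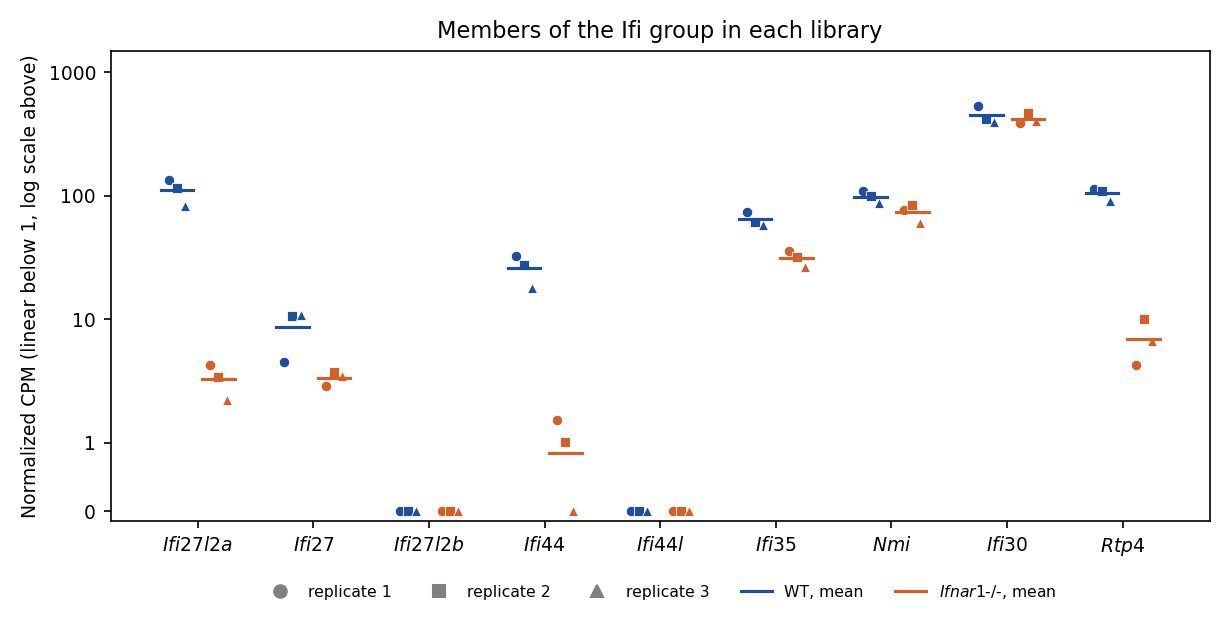
Normalized CPM of the 9 genes in each library, on an axis that is linear below 1 and logarithmic above. Symbols are replicates 1 to 3, colours the genotypes and short lines the group means (n = 3). The groups are farthest apart for *Ifi27l2a*, *Ifi44* and *Rtp4*, and those of *Ifi30* overlap.

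**Figure D2:**
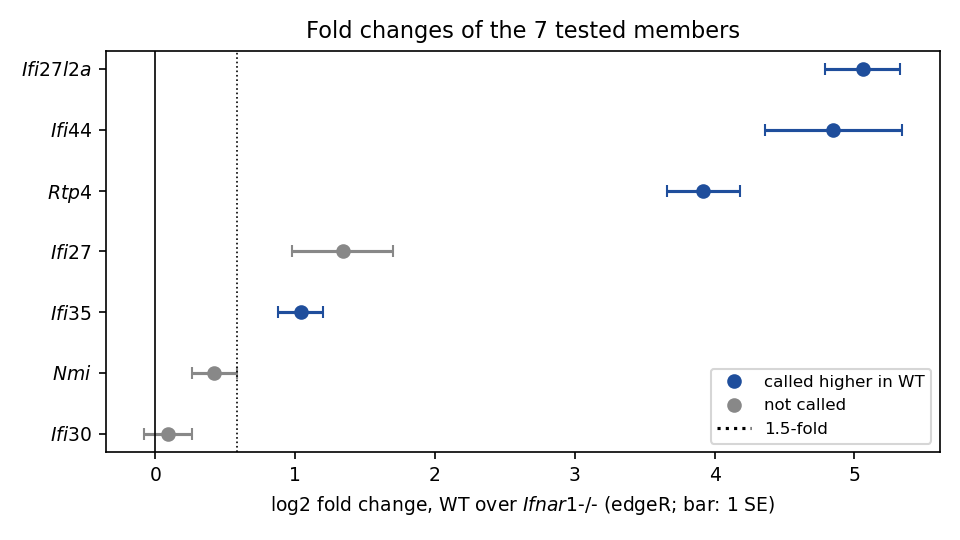
Log2 fold change, WT over Ifnar1-/-, of the 7 tested genes, with bars of 1 SE to each side. *Ifi27l2a* (5.06), *Ifi44* (4.85) and *Rtp4* (3.92) stand well above *Ifi27* (1.34) and *Ifi35* (1.04), and the bar of *Ifi30* includes 0.

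*Ifi27l2a*, an Isg12 gene on chromosome 12 (ENSMUSG00000079017.3, GRCm38, chr12:103442167-103443680, minus strand), had a log2 fold change similar to that of *Ifi44*. It was the larger of the 2 as reported, and the smaller with limma-voom (5.05 against 5.47) and without Ifnar1-/- replicate 1 (5.31 against 5.58). Its normalized CPM was 135, 116 and 82.8 in the WT libraries and 4.26, 3.38 and 2.2 in the Ifnar1-/- libraries. The lowest WT library was thus far above the highest Ifnar1-/- library. The log2 fold change was 5.06 (SE 0.27, edgeR adjusted p = 5.23e-06), the fifth smallest p of all 11254 genes. The gene was still counted in every Ifnar1-/- library, with 28, 20 and 12 expected counts.

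*Ifi27*, its neighbour (ENSMUSG00000064215.13, chr12:103434211-103440239, plus strand), encodes a small membrane protein and was much less abundant in WT. Its normalized CPM was 4.54, 10.6 and 10.8 in WT and 2.89, 3.72 and 3.48 in Ifnar1-/- libraries. WT replicate 1 lay close to the Ifnar1-/- libraries, and the groups did not overlap. The log2 fold change of 1.34 (SE 0.36, 95% interval 0.63 to 2.05) had an edgeR adjusted p of 0.099 and was not called. Without WT replicate 1 it was 1.68 and called (edgeR adjusted p = 0.0118), and DESeq2 also called it (1.36, adjusted p = 0.0319). These values rest on 19 to 55 expected counts per library.

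The third member of the cluster, *Ifi27l2b* (ENSMUSG00000021208.9, chr12:103450898-103457223, minus strand), was not detectable at this depth. Its coding sequence is 90.7% identical to that of *Ifi27l2a* over 270 aligned bases, and that of *Ifi27* is 77% identical to *Ifi27l2a*. Even so, none of the stretches of 75 bases in the annotated transcripts of these 3 genes occurs in a transcript of another gene.

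Within the cluster, the balance of *Ifi27l2a* to *Ifi27* was separate between the genotypes. The log2 ratio of their counts was 4.87, 3.44 and 2.92 with WT cells, against 0.55, -0.13 and -0.64 with Ifnar1-/- cells. *Ifi27l2a* thus had many more counts than *Ifi27* in each WT library and about as many in the Ifnar1-/- libraries. The difference of 3.82 had an exact permutation p of 0.1, two-sided, which is the smallest that 3 against 3 libraries allow (adjusted over the 2 pairs compared, 0.1). The abundance-weighted transcript length that RSEM gave for *Ifi27* did not overlap either. It was 736.5, 683.2 and 645.4 bases with WT cells, against 912.6, 895.5 and 780.1 bases with Ifnar1-/- cells, so that all WT libraries held the shorter mean (exact permutation p = 0.1, two-sided). *Ifi27* has 9 annotated transcripts, of 410 to 977 bases, and the lengths rest on the same few counts. The lengths given for *Ifi44*, *Nmi*, *Ifi35*, *Ifi30* and *Rtp4* overlapped between the genotypes. The p for *Ifi27* was not adjusted for these other comparisons.

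**Figure D3:**
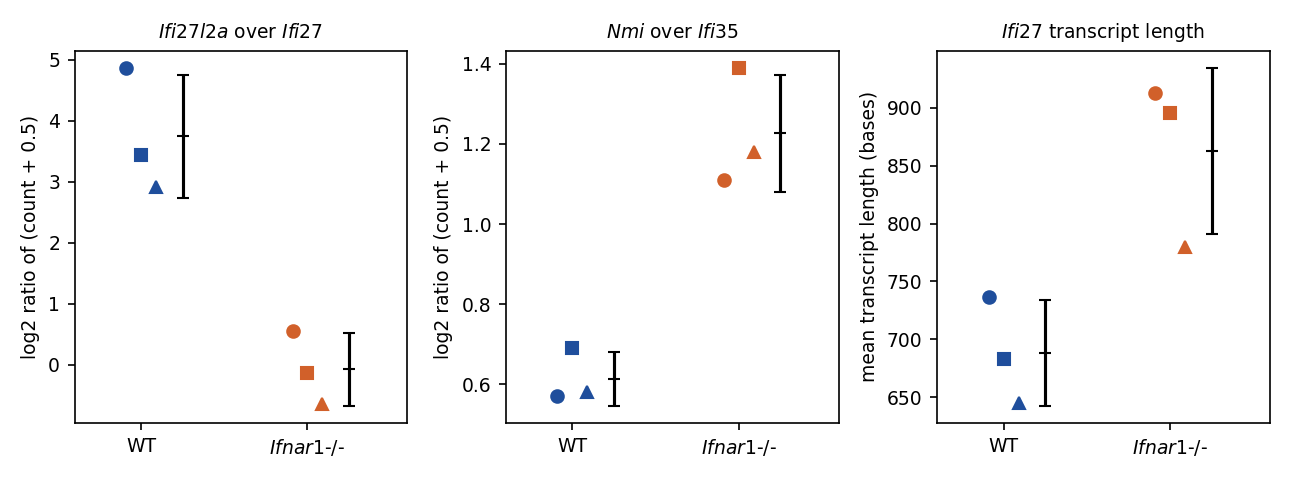
Within-library log2 ratios of the counts of *Ifi27l2a* over *Ifi27* and of *Nmi* over *Ifi35*, and the mean transcript length of *Ifi27* in bases, with 1 point per library and bars for the mean ± SD (n = 3). WT and Ifnar1-/- libraries are separate in each, with ratios of 2.92 to 4.87 against -0.64 to 0.55 for the first pair.

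*Ifi44* (ENSMUSG00000028037.13, chr3:151730922-151749960, minus strand), known for restraining proliferation and viral replication, was close to the limit of detection without the receptor. Its normalized CPM was 32.5, 27.3 and 17.9 in WT and 1.52, 1.01 and 0 in Ifnar1-/- libraries, from 10, 6 and 0 expected counts. The library at 0 allows up to 0.55 normalized CPM. The group means of 25.9 ± 7.39 and 0.845 ± 0.775 (SD, n = 3) differed 30.7-fold, and the log2 fold change was 4.85 (SE 0.49, edgeR adjusted p = 0.000408). Its promoter stretch, printed above, holds the first 2 of its matches to the IRF core. *Ifi44l*, its paralog (ENSMUSG00000039146.5, chr3:151758737-151762892, minus strand), was at 0 in all libraries. The 2 coding sequences are 77.8% identical over 468 aligned bases and share no stretch of 75 bases, and the annotation marks *Ifi44l* as affected by an error of the reference genome.

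*Rtp4* (ENSMUSG00000033355.6, chr16:23520291-23614222, plus strand) had the next largest log2 fold change. It was measured at 114, 109 and 91.3 normalized CPM in WT and at 4.26, 9.96 and 6.6 in Ifnar1-/- libraries. The WT libraries were close to each other, and the Ifnar1-/- libraries were all low but more uneven. The log2 fold change was 3.92 (SE 0.26, edgeR adjusted p = 1.64e-05), a 15.1-fold ratio of means. The other receptor-transporting genes, *Rtp1*, *Rtp2* and *Rtp3*, were at 0 throughout. In the annotation, 10.5% of the stretches of 75 bases in *Rtp4* transcripts also occur in *Gm45338*, which overlaps it on the same strand and was given 0 counts.

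The partner genes *Ifi35* and *Nmi* differed less. *Ifi35* (ENSMUSG00000010358.13, chr11:101448407-101458698, plus strand) was at 73.9, 61.4 and 58 normalized CPM in WT and 35.6, 32.1 and 26.4 in Ifnar1-/- libraries, without overlap. Its log2 fold change was 1.04 (SE 0.16, edgeR adjusted p = 0.0072). The call was lost with offsets for GC content and length (0.88, edgeR adjusted p = 0.231). *Nmi* (ENSMUSG00000026946.9, chr2:51948487-51973494, minus strand) was at 110, 99.1 and 87 normalized CPM in WT and 76.7, 84.3 and 60.1 in Ifnar1-/- libraries. The lowest WT library was only slightly above the highest Ifnar1-/- library. Its log2 fold change of 0.42 (SE 0.16, 95% interval 0.1 to 0.74) was not called (edgeR adjusted p = 0.216).

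The balance of the partners was also separate between the genotypes. The log2 ratio of *Nmi* to *Ifi35* counts was 0.57, 0.69 and 0.58 in WT and 1.11, 1.39 and 1.18 in Ifnar1-/- libraries. All Ifnar1-/- libraries were above all WT libraries, by 0.61 on the log2 scale in the mean, with the smallest exact permutation p the design allows (0.1, two-sided).

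*Ifi30* (ENSMUSG00000031838.8, chr8:70762774-70766663, minus strand, listed as a processed transcript in the annotation) had the highest counts of the 9. It was at 531, 417 and 397 normalized CPM in WT and 390, 469 and 404 in Ifnar1-/- libraries. The groups overlapped, with WT replicate 1 above all others. The log2 fold change was 0.09 (SE 0.17, 95% interval -0.23 to 0.41, edgeR adjusted p = 0.821), and without WT replicate 1 it was -0.04. The interval excludes the log2 fold change of 1.04 measured for *Ifi35*.

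Per length, in the deposited TPM (RSEM's estimate of a gene's share of all transcripts), *Ifi30* was the most abundant of the 9 in both genotypes. It reached 518 ± 34.7 TPM in WT and 486 ± 95.6 in Ifnar1-/- libraries (mean ± SD, n = 3). In WT, *Ifi27l2a* was next at 379 ± 63.7 TPM, followed by *Rtp4* at 112 ± 22 and *Nmi* at 103 ± 8.6, which overlapped each other. *Ifi35* was at 51.7 ± 4.85 TPM, and *Ifi27* at 17.9 ± 10.4 and *Ifi44* at 13.8 ± 0.929 again overlapped. The order changed without the receptor. *Nmi* at 77.5 ± 21 TPM and *Ifi35* at 25.5 ± 4.42 then stood above *Ifi27l2a* at 10.6 ± 3.43, and *Rtp4* at 6.89 ± 3.89 overlapped both *Ifi27l2a* and *Ifi27*, which was at 4.58 ± 1.02. *Ifi44* was lowest of the detected genes at 0.717 ± 0.736 TPM.

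Set against the mean TPM of 14638 detected protein-coding genes, *Ifi27l2a* thus went from the 98.7th percentile of mean TPM in WT to the 63.9th in Ifnar1-/- libraries. *Rtp4* went from 95.5 to 55.8 and *Ifi44* from 68.5 to 29.7, while *Ifi30*, not itself annotated as protein-coding, was at 99.1 and 99 on the same scale. Summed over the 9 genes, TPM was 1094, 1341 and 1151 in WT and 548.7, 753 and 533.7 in Ifnar1-/- libraries, without overlap. *Ifi30* made up 40.9% to 45.7% of this sum in WT and 77% to 82.4% in Ifnar1-/- libraries. TPM are shares of a library, and *Rn7s2*, a 7SL RNA of the signal recognition particle, took 27.8% of TPM in WT replicate 1, which lowers the other values there. The order of the genes was the same in FPKM and in TPM over protein-coding genes and the 9.

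Other genes of the same route give the setting. Of 13 genes of IFNAR signalling, 4 were higher in WT and 0 lower, with a median log2 fold change of 0.29. The 4 were *Irf7* (4.08), the master regulator of interferon production, the ISG15 protease *Usp18* (4.09), the ubiquitin-like modifier *Isg15* (3.56) and *Stat2* (2.04). *Irf9* (0.50, edgeR adjusted p = 0.0842) was not called. All 28 other interferon-stimulated genes examined were higher in WT, from *Cxcl10* at 1.02 to *Ifit3* at 5.22, with a median of 3.04 on the log2 scale. With GC and length offsets 26 of the 28 were called, and 24 when these were joined to the replicate block. When at least 10 counts were required in every library, all 24 that were still tested were called. *Ifit1*, *Ifit3b*, *Mx2* and *Isg20* fell below that filter, with lowest counts of 8, 1, 3 and 6. The log2 fold changes of *Ifi27l2a*, *Ifi44* and *Rtp4* were above this median, and those of *Ifi27*, *Ifi35*, *Nmi* and *Ifi30* below it.

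Of 13 further genes whose symbols start with Ifi and a number, 12 were tested and 8 were higher in WT, with a median log2 fold change of 1.44. Most belong to the DNA-sensing Ifi200 family, such as *Ifi213* (4.55), *Ifi208* (4.16), *Ifi205* (1.46) and *Ifi204* (0.97). Those not called were *Ifi203*, *Ifi207*, *Ifi203-ps* and the GTPase gene *Ifi47* (0.44, edgeR adjusted p = 0.222). All 12 were higher in WT at an unadjusted p under 0.05, and DESeq2 called 11 of them higher. The count fell to 5 without Ifnar1-/- replicate 3, and to 3 with GC and length offsets joined to the replicate block. The symbol alone thus covered log2 fold changes from 0.09 to 5.06 among the genes tested.

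The genes that act with *Ifi30* in MHC class II processing were not called by edgeR (0 of 9, median log2 fold change 0.05, 1 in each direction at an unadjusted p under 0.05). They include the protease *Ctss* (0.27), the invariant chain *Cd74* (0.44) and the transactivator *Ciita* (0.05). DESeq2 called 1 of them, the legumain gene *Lgmn* (0.72, edgeR adjusted p = 0.101), and limma-voom called 0. Of 10 genes known mainly as IFN-γ targets, edgeR, DESeq2 and limma-voom called 0, and 1 was higher at an unadjusted p under 0.05. The latter was the GTPase gene *Iigp1* (1.40, edgeR adjusted p = 0.151), which was called with the replicate block and with no filter on low counts. Their median was 0.03, and *Cxcl9* (-0.21) and *Gbp2* (-0.36) were also among them.

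**Figure D4:**
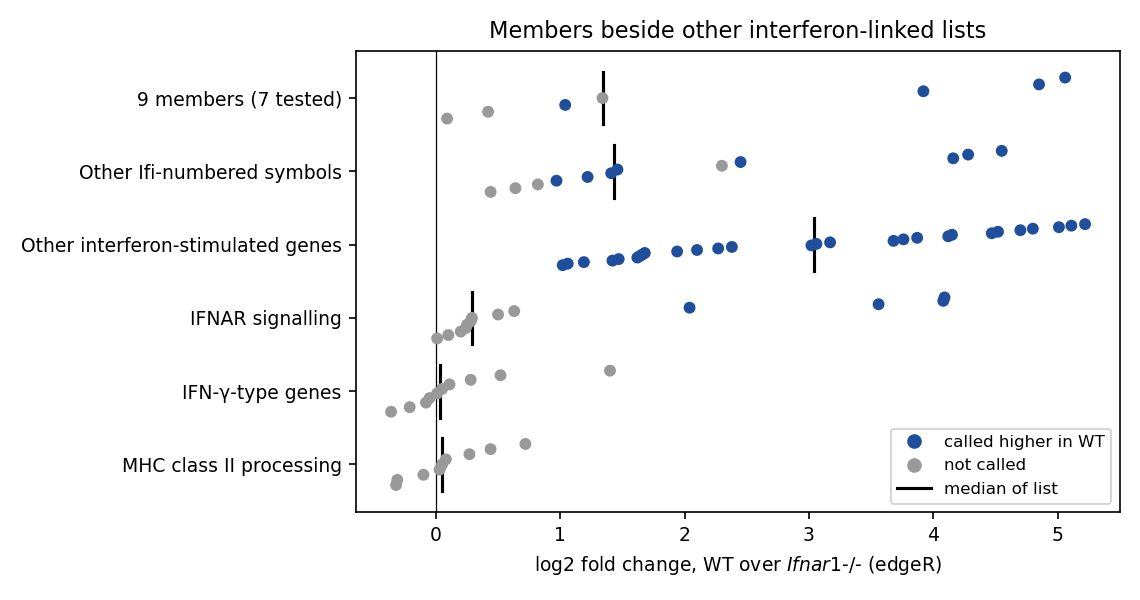
Log2 fold changes, WT over Ifnar1-/-, of the 9 genes and of the other gene groups, with 1 point per tested gene, coloured if called, and a line at each median. The 28 other interferon-stimulated genes lie between 1.02 and 5.22, and the genes of MHC class II processing scatter around 0.05.

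The genes flanking the 9 on their chromosomes were measured as well. Of 24 tested neighbours, 1 was higher in WT and 0 were lower by edgeR, with a median log2 fold change of -0.07. At an unadjusted p under 0.05, 4 were higher and 1 lower, and DESeq2 and limma-voom each called 0 lower. The called gene was *Ddx24*, a helicase gene 8.4 kb from *Ifi27*, with 142 ± 31.9 normalized CPM in WT and 79.1 ± 3.74 in Ifnar1-/- libraries (SD, n = 3; log2 fold change 0.84, edgeR adjusted p = 0.0354). Without WT replicate 1, WT replicate 3 or any one of the Ifnar1-/- replicates, this call was lost. The nearest genes on either side of *Ifi35* were *Vat1*, directly beside it (0.56, edgeR adjusted p = 0.114, groups not overlapping), and *Rpl27*, 2.9 kb away (-0.40, adjusted p = 0.342). Those of *Ifi30* were *6330537M06Rik*, which overlaps its start on the opposite strand (0.01, edgeR adjusted p = 0.994), and *Mpv17l2*, 1.8 kb away (-0.12, adjusted p = 0.811), with *Pik3r2* next on the side of the first, 1.5 kb from *Ifi30* (0.66, adjusted p = 0.201). None of these 5 was called as reported, and *Pik3r2* was called with no filter on low counts.

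The profiles most like the mean of the tested members over the 6 libraries were those of *Phf11d* (Pearson r = 0.9983), *Sntb2* (0.9965), *Herc6* (0.9963), *Ifi208* (0.995) and *Oas1g* (0.9944). The 6 points fall into the 2 genotypes, so these values are a description only. *Sntb2* had a log2 fold change of only 0.31 and was not called (edgeR adjusted p = 0.24).

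Markers were used to check the sort. All 8 monocyte markers were tested, and their summed TPM was 5030, 6170 and 7150 in WT and 5630, 5560 and 5970 in Ifnar1-/- libraries, led by *Lyz2*. Of them, *Ly6c2*, which encodes the sorted antigen Ly6C, was higher in WT (log2 fold change 1.40, edgeR adjusted p = 0.00957). *Ccr2*, the chemokine receptor of these cells, was at -0.62 (edgeR adjusted p = 0.143), and the Fc receptor gene *Fcgr1* at 0.71 (adjusted p = 0.0839), both without overlap between groups and neither called. At an unadjusted p under 0.05, 2 of the 8 were higher and 1 lower, and DESeq2 likewise called 2 higher and 1 lower. Neutrophil markers summed to 264, 1400 and 4100 TPM in WT and 1620, 1390 and 4300 in Ifnar1-/- libraries, led by *S100a9*, and *Ly6g* stayed at or below 0.787 normalized CPM. Their spread ran within both groups, and 0 of 7 tested were called by edgeR, DESeq2 or limma-voom (0 at an unadjusted p under 0.05).

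Lymphocyte markers were at low levels. T cell markers, led by *Cd3g*, summed to 30, 19.4 and 44.9 TPM in WT and 18.8, 6.69 and 9.51 in Ifnar1-/- libraries. EdgeR called 0 of the 6 tested, with 5 higher in WT at an unadjusted p under 0.05, and DESeq2 called 2 higher. NK cell markers summed to 8.59, 7.37 and 25 TPM in WT and 6.78, 2.81 and 6.84 in Ifnar1-/- libraries. In both sums the lowest WT library was only slightly above the highest Ifnar1-/- library. B cell markers summed to 1.04, 1.53 and 1.38 TPM in WT and 0.26, 0.55 and 0.85 in Ifnar1-/- libraries, also without overlap, and none of them was tested. Plasmacytoid dendritic cell markers summed to 124, 139 and 107 TPM in WT and 35.2, 57.6 and 33.4 in Ifnar1-/- libraries, led by *Bst2*, itself an interferon-stimulated gene, while *Siglech* stayed at or below 1.97 normalized CPM. Markers of endothelium and neural cells summed to 16.4 to 20.2 TPM in WT and 13.7 to 16.3 in Ifnar1-/- libraries, led by *Mbp*. The part of these cells in the differences of the 9 genes was not tested. Microglial markers, at 109 to 197 TPM in WT and 154 to 218 in Ifnar1-/- libraries, overlapped. *Xist* was counted in all libraries and was not called (-0.14), and the 4 Y-linked genes examined were at 0.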

How the data were processed

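The deposited files hold, per gene and library, expected counts, TPM and FPKM that the authors obtained with RSEM (1.2.31) after alignment with STAR (2.6.0c) to GRCm38, per the labels and the submitters' processing notes. The lengths in bases that RSEM gave for each gene, deposited beside them, were used unchanged. Paired reads came from stranded total RNA. The labels and the study's methods name different library kits, and the strand setting in counting is not given in the sources used here. The deposited files carry a further number per replicate that the labels do not explain.

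Expected counts were rounded and tested with the quasi-likelihood test of edgeR (4.0.16, R 4.3.3) with TMM scaling and at least 10 counts by filterByExpr. Calls required an adjusted p no greater than 0.05 together with a 1.5-fold difference. Intervals of 95% are normal approximations. Alternatives were DESeq2 (1.42.0), limma-voom (limma 3.58.1), other filters and scalings, GC and length offsets, a replicate block and leaving out each library. The scripts were tested on simulated data. Ratios used counts + 0.5. Of 54232 genes, 54165 matched GENCODE annotation by identifier, and 67 did not. Libraries held 4531782 to 7321380 expected counts, of which 12.3% to 22.7% were mitochondrial rRNA.

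The members and gene lists were chosen with earlier results of these data known. Genes could be named if they were among the 9 members, the gene lists, the 2 nearest tested genes on each side of a member, or the 5 genes outside the members with the highest Pearson correlation to the mean log2 profile of the tested members, each centred on its own mean. *Rn7s2* and *Rn7sk* fall outside this rule and were chosen after their values were seen. *Gm45338* also falls outside it, and is named because it overlaps *Rtp4*. The 6 libraries came from 3 recipients that carried both genotypes. Which WT and Ifnar1-/- libraries share a mouse is not stated, so p-values measure the spread between these libraries, taken as independent.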

Additional observations from a re-analysis of the deposited data

How the results depend on the processing

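The number of the 9 genes called higher ran from 3 to 5 over all 18 alternatives (4 as reported), and the log2 fold changes of *Ifi27l2a* (4.87 to 5.31), *Rtp4* (3.67 to 4.29) and *Ifi44* (4.34 to 5.58, over the 17 alternatives that tested it) kept their calls. *Ifi27* was called with DESeq2 (1.36), with no filter on low counts (1.34) and without WT replicate 1 (1.68, the highest of 1.16 to 1.68 when a library was left out). *Ifi35* lost its call with GC and length offsets (0.88) and with these and the replicate block (0.86), and *Ifi30* turned to -0.04 without WT replicate 1 (-0.04 to 0.19 when a library was left out). Over all genes, 240 were called, against 469 with DESeq2, 419 with DESeq2 on all genes (chosen after seeing the data), 872 with no filter, 131 with GC and length offsets, 94 with these and the block, and 119 to 245 when a library was left out. The offsets moved the median of all genes to -0.129, and to -0.143 with the block. Of the calls, 78.3% were higher in WT, against 90.1% with the offsets, 86.2% with these and the block, and up to 95.3% when a library was left out. The share was lower with at least 10 counts in every library (75.9%), DESeq2 (75.5%), DESeq2 on all genes (74.9%) and no filter (70%). Of the 28 other interferon-stimulated genes, 26 to 28 were called when a library was left out. Of the other Ifi genes (8 called), 3 were called with offsets and block, 11 with DESeq2 and with no filter, 10 with DESeq2 on all genes and with DESeq2 and the block, and 5 to 8 when a library was left out. In MHC class II processing (0), DESeq2 with either filter and edgeR with no filter called 1, *Lgmn*. Among IFN-γ targets (0), edgeR with no filter, the replicate block and DESeq2 with the block called 1, *Iigp1*. Of the neighbours (1 called, with alternatives chosen after seeing the data), 3 were called with no filter. With the offsets, with or without the block, 0 were called, and 0 to 1 when a library was left out. The same 24 neighbours were looked up under each alternative. With at least 10 counts in every library some of them were not tested, such as *6330537M06Rik* (7 to 22 counts), so no number is given there. The cause of the changes under the alternatives was not tested. The 2 ratios and the order of the genes kept their direction under each alternative run on them.

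Replicate numbers are shared by the groups. After subtraction of group means, libraries with the same number correlated at 0.0872, 0.0265 and 0.289, not each above 0.1, so the libraries were treated as sharing only a number. WT replicates 2 and 3 correlated best with the Ifnar1-/- library of their own number, and WT replicate 1 with Ifnar1-/- replicate 2 (0.101). With the replicate block 182 genes were higher and 38 lower in WT, and the 4 calls among the 9 genes were the same genes. Low counts limit what can be said of *Ifi27* and of *Ifi44* in Ifnar1-/- libraries. Whether depth accounts for the 2 genes at 0 was not tested.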

Other observations

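Abundant small noncoding RNAs were uneven between libraries of 1 genotype. *Rn7s2* was at 42700, 9720 and 10500 normalized CPM in WT and 14900, 8650 and 16500 in Ifnar1-/- libraries, and *Rn7sk*, the RNA that holds the elongation factor P-TEFb inactive, was at 10500, 3430 and 3390 in WT and 7500, 4030 and 6630 in Ifnar1-/- libraries. Neither was called. WT replicate 1 was the highest library in both. It was also the highest WT library for 6 of the 7 tested genes, all but *Ifi27*, for which it was the lowest.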
